A study of Arabidopsis thaliana with 9 samples.

Results

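TIR-domain immune receptor genes of Arabidopsis thaliana encode intracellular proteins with a Toll/interleukin-1 receptor (TIR) domain at one end, most of them joined to a nucleotide-binding (NBS) domain and leucine-rich repeats (LRR). Their transcripts were examined in roots of MYB36 mutants. The members were 60 loci of the TIR-NBS-LRR and TIR-NBS classes, taken by their locus numbers. A member was measured by a probe set that the platform annotation pairs with 1 gene, the brightest one where a gene had several. Of the 60 loci 58 were measured, among 16541 named genes in the whole series. AT1G17610 (CHS1) and AT4G11170 (RMG1) were not analysed here.

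The study measured root RNA of 3 lines on Affymetrix arrays, with 3 arrays each of the mutant line myb36-2, the mutant line myb36-1 and the wild type Col-0. All plants were 2 weeks old and had grown on vertical agar plates of MGRL nutrient medium with sucrose. The line labels give each mutant by its line name, and the sample titles give each mutant a further code of its own. Neither states what the mutations are. No probe set is named for MYB36, so the line labels were not checked against its transcript. Nothing in the labels says whether the 3 arrays of a line hold separately grown plants. The spread behind the p-values is therefore that between arrays, and it may be technical.

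In the best known case, the LRRs of such a receptor sense a pathogen effector, the TIR domains come together and act as enzymes that break down NAD+, and the small molecules they make bind EDS1 paired with SAG101 or PAD4. These pairs then engage helper receptors of the NRG1 and ADR1 families, which lead to calcium influx, defence gene expression and often local cell death. Many family members lie in clusters of related copies, and some encode short proteins of a TIR domain with little else.

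Values are log2 expression values. A gene was called when its limma adjusted p (Benjamini-Hochberg over 31325 tested probe sets, two-sided) was under 0.05, and differences are given as mutant minus Col-0 with the standard error (SE) of the fit. The deposited values of the myb36-2 arrays lie higher as a whole: the median over tested probe sets was 5.30 to 5.34 on the myb36-2 arrays, 5.07 to 5.09 on the myb36-1 arrays and 5.09 to 5.11 on the Col-0 arrays. The median difference over all tested probe sets was therefore 0.16 in myb36-2 as deposited, and -0.01 once all 9 arrays were quantile-normalised together, here called the common scale. In myb36-1 it was -0.01 as deposited. Counts and the main differences are given on both scales; a value with no scale named is as deposited. Pairs of arrays correlated at 0.990 to 0.994 within a line and at 0.979 to 0.992 across lines.

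The members gave signals in the lower and middle part of the range in wild-type roots. Their Col-0 means ran from 2.33 to 7.14 with a median of 4.13, and the median SD between the 3 Col-0 arrays of a member was 0.13. The brightest signals came from AT5G38350 (7.14 in Col-0), AT1G72860 (7.06), AT4G36140 (6.74) and AT5G38340 (6.64). The dimmest came from AT1G72910 (2.33), AT1G56520 (2.35), AT1G63750 (2.37) and AT1G72940 (2.40). Signals of different probe sets depend on their probes, so this order is not one of transcript abundance. In whole roots, fewer cells of a type and less RNA per cell cannot be told apart.

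In myb36-2 roots, 20 of the 58 measured members rose and 1 fell as deposited, when 19.3% of all tested probe sets rose and 2.02% fell. These 20 are 34.5% of the members, and the members' median difference was 0.28, against 0.16 over all tested probe sets. On the common scale 9 members rose (15.5%, against 4.66% of all tested probe sets) and 5 fell (8.62%, against 5.39%), and the median difference was 0.07, against -0.01. The 9 rises on the common scale were all among the 20 as deposited, and the single fall as deposited was among the 5. A further 11 rises were called as deposited only, 4 falls on the common scale only, and 33 members were called on neither scale. The members were chosen with earlier results of these data known, so their shares beside those of all tested probe sets are descriptive only.

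**Figure D1:**
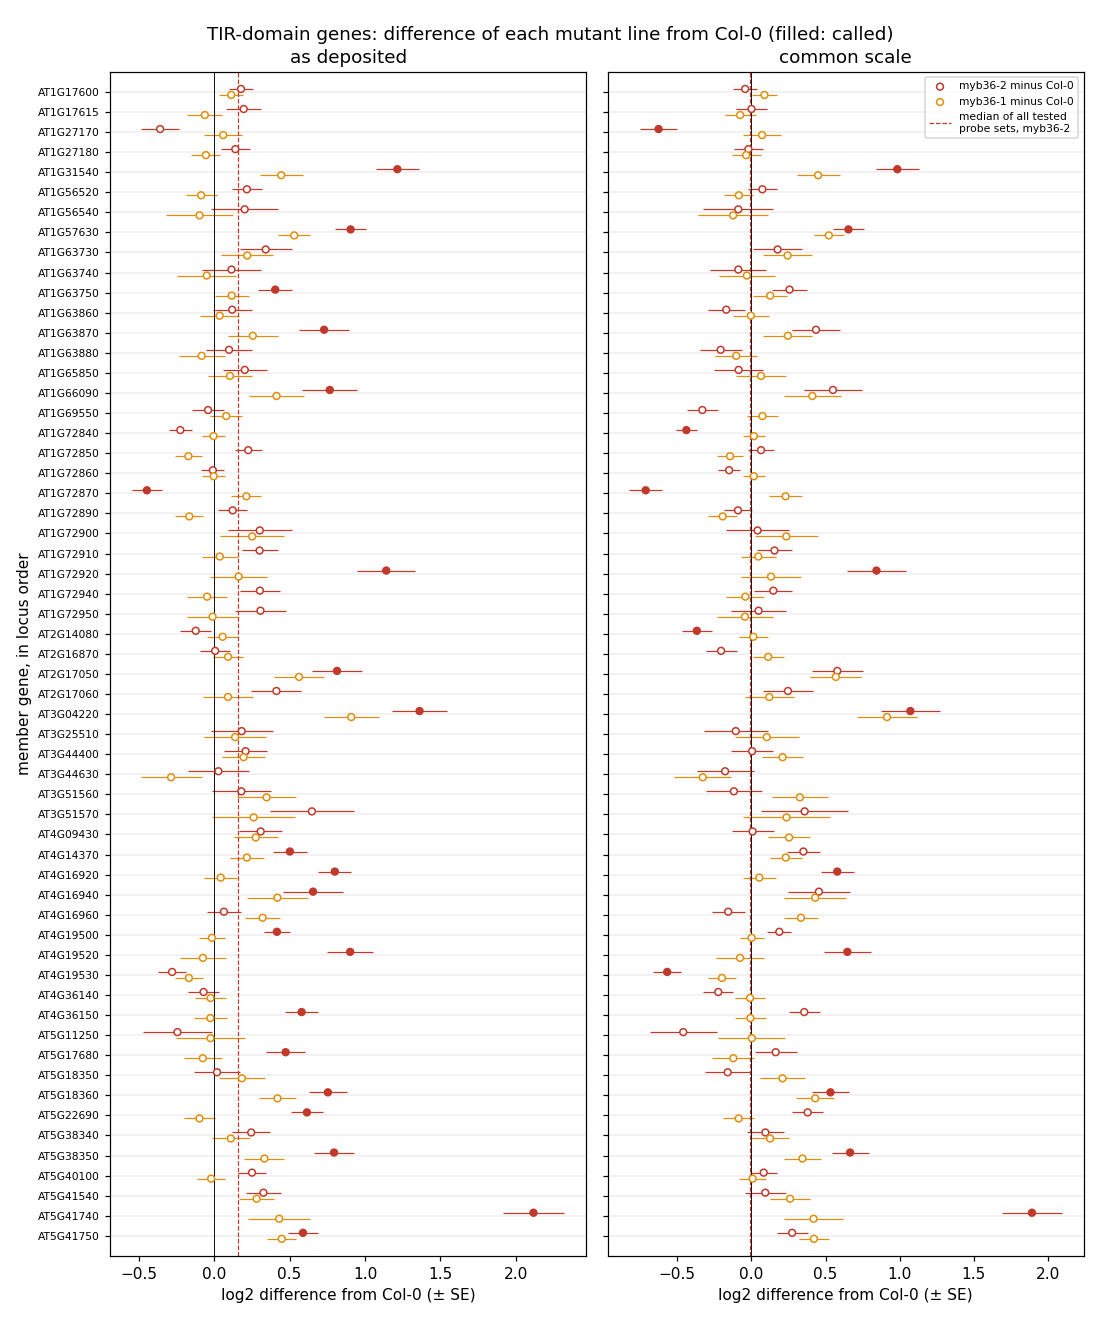
Difference from Col-0 of each measured member (log2, points with SE; myb36-2 in red above myb36-1 in orange, filled where called), with members in locus order down the page, as deposited on the left and on the common scale on the right. AT5G41740 lies farthest to the right in myb36-2 on both scales (2.12 and 1.89), the dashed line marks the median of all tested probe sets in myb36-2 (0.16 and -0.01), and no myb36-1 point is filled.

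AT5G41740, which encodes a receptor of the TIR-NBS-LRR type, had the highest rise of the 58. Its deposited values were 6.30, 6.20 and 6.08 on the myb36-2 arrays, 4.73, 4.44 and 4.36 on the myb36-1 arrays and 3.55, 4.37 and 4.31 on the Col-0 arrays. All myb36-2 arrays lay above all others, while myb36-1 overlapped Col-0. The difference was 2.12 ± 0.20 in myb36-2 (limma adjusted p = 0.00056) and 1.89 ± 0.20 on the common scale (adjusted p = 0.0014 in limma).

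AT3G04220, also of the TIR-NBS-LRR type, was high in both mutants. Its deposited values were 4.58, 4.18 and 4.41 in myb36-2, 4.21, 3.90 and 3.71 in myb36-1 and 3.35, 2.74 and 2.99 in Col-0. Every mutant array lay above every Col-0 array, and the arrays of the mutant lines overlapped. It rose by 1.36 ± 0.18 in myb36-2 (limma adjusted p = 0.0022), or 1.07 ± 0.20 on the common scale (adjusted p = 0.014 in limma). In myb36-1 the difference was 0.91 ± 0.18 and did not pass (limma adjusted p = 0.086).

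AT1G31540 is related to RAC1, a resistance gene against white rust (Albugo) described in another accession. Its values were 5.65, 5.29 and 5.89 in myb36-2, 4.83, 4.72 and 4.97 in myb36-1 and 4.40, 4.34 and 4.44 in Col-0. The lines did not overlap, with myb36-1 between myb36-2 and Col-0. The rise in myb36-2 was 1.21 ± 0.14 (limma adjusted p = 0.0014) and on the common scale 0.98 ± 0.14 (adjusted p = 0.0053 in limma). The myb36-1 difference of 0.44 ± 0.14 did not pass (limma adjusted p = 0.29).

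Short TIR proteins were represented by AT1G57630 and AT1G72920. AT1G57630 gave 5.08, 5.29 and 4.91 in myb36-2, 4.64, 4.72 and 4.80 in myb36-1 and 4.23, 4.11 and 4.23 in Col-0, again with no overlap between lines. It rose by 0.90 ± 0.10 in myb36-2 (limma adjusted p = 0.0013; 0.65 on the common scale, adjusted p = 0.0072). Its difference of 0.53 ± 0.10 in myb36-1 had the lowest adjusted p of the 58 members there, 0.082 in limma. On the common scale the myb36-2 and myb36-1 arrays of AT1G57630 overlapped.

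AT1G72920 gave 4.86, 4.35 and 4.13 in myb36-2, 3.70, 3.19 and 3.52 in myb36-1 and 3.36, 3.40 and 3.17 in Col-0. The myb36-2 arrays stood above the rest, and myb36-1 overlapped Col-0. It rose by 1.14 ± 0.19 (limma adjusted p = 0.0053), or 0.84 ± 0.20 on the common scale (adjusted p = 0.032 in limma). The common-scale call of AT1G72920 was kept when myb36-2 replicate 1 or 3 was left out and lost in the other 4 omissions of 1 array.

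On chromosome 4, AT4G16920 lies in the cluster of RPP4, RPP5 and SNC1, known for resistance to downy mildew and for an autoactive allele of SNC1. It gave 5.81, 5.42 and 5.47 in myb36-2, 4.75, 4.81 and 4.88 in myb36-1 and 4.81, 4.70 and 4.81 in Col-0. It was high on the myb36-2 arrays alone, by 0.80 ± 0.11 (limma adjusted p = 0.0024) and 0.58 on the common scale (adjusted p = 0.016; 0.055 without Col-0 replicate 2). Its cluster neighbours differed: AT4G16940 rose by 0.66 as deposited (limma adjusted p = 0.046; common scale 0.45, adjusted p = 0.20) but was not called in any fit that left out 1 array, and AT4G16960 was at 0.06 without passing.

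AT4G19520 stands beside the RPP2 locus for downy mildew resistance. Its values were 5.28, 5.01 and 5.16 in myb36-2, 4.37, 4.35 and 3.80 in myb36-1 and 4.23, 4.35 and 4.17 in Col-0. The myb36-2 arrays lay above the others, and the lowest array was a myb36-1 one. The rise was 0.90 ± 0.15 (limma adjusted p = 0.0055), or 0.65 ± 0.16 on the common scale (adjusted p = 0.036 in limma), where none of the 6 fits without 1 array kept the call.

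Receptor genes of chromosome 5 complete the 9. AT5G38350 gave 8.17, 7.62 and 8.02 in myb36-2, 7.45, 7.54 and 7.43 in myb36-1 and 7.24, 7.07 and 7.11 in Col-0, with the lines apart as deposited. It rose by 0.79 ± 0.13 (limma adjusted p = 0.0053) and by 0.66 on the common scale (adjusted p = 0.014). The direct difference of myb36-2 from myb36-1 in AT5G38350 passed as deposited only. AT5G18360 gave 5.28, 5.63 and 5.44 in myb36-2, 5.25, 4.94 and 5.16 in myb36-1 and 4.82, 4.74 and 4.54 in Col-0, so both mutants lay above Col-0. It rose by 0.75 ± 0.13 (limma adjusted p = 0.0051), and by 0.53 on the common scale (adjusted p = 0.033), where the call was kept when myb36-2 replicate 1 was left out and lost in the other 5 omissions.

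The 11 members called higher as deposited only had differences of 0.40 to 0.81 in myb36-2, and 0.16 to 0.58 on the common scale. The largest were AT2G17050 (0.81; common scale 0.58, adjusted p = 0.064 in limma), AT1G66090, a TIR-NBS gene without LRRs (0.77; 0.55, adjusted p = 0.10), and AT1G63870 (0.73; 0.43, adjusted p = 0.13). AT1G66090 gave 3.73, 2.96 and 3.12 in myb36-2, 2.90, 2.89 and 2.97 in myb36-1 and 2.49, 2.71 and 2.32 in Col-0, with 1 myb36-2 array well above the rest. The calls of AT1G66090 and AT1G63870 as deposited were both lost when Col-0 replicate 1 or 3 was left out, and that of AT1G63870 also when myb36-2 replicate 2 was.

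Among the others of these 11, AT4G14370 gave 7.25, 6.90 and 7.11 in myb36-2, 6.94, 6.71 and 6.75 in myb36-1 and 6.71, 6.54 and 6.51 in Col-0, a rise of 0.50 in myb36-2 (limma adjusted p = 0.016; 0.052 without Col-0 replicate 2; common scale 0.35, adjusted p = 0.075). AT5G17680 gave 3.72, 3.74 and 3.75 in myb36-2, 2.98, 3.47 and 3.12 in myb36-1 and 3.30, 3.12 and 3.38 in Col-0. Its rise of 0.47 (limma adjusted p = 0.030) was called when Col-0 replicate 3 was left out and lost in the other 5 omissions. AT5G17680 was at 0.16 on the common scale (limma adjusted p = 0.50). In both genes the deposited myb36-2 values lay above all Col-0 values.

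The 33 members called on neither scale had myb36-2 differences of -0.24 to 0.65 as deposited and -0.46 to 0.36 on the common scale. At the ends were AT5G11250, with -0.24 ± 0.23 and deposited values of 4.65, 5.16 and 5.38 in myb36-2, 5.03, 5.19 and 5.63 in myb36-1 and 4.95, 5.37 and 5.60 in Col-0, and AT3G51570 with 0.65 ± 0.28 (limma adjusted p = 0.12). The 3 lines overlapped in AT5G11250, and its spread within each line was wide.

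The fall called on both scales was in AT1G72870, a TIR-NBS gene. Its deposited values were 4.42, 4.22 and 4.54 in myb36-2, 5.13, 5.02 and 5.02 in myb36-1 and 4.93, 4.75 and 4.85 in Col-0. All myb36-2 arrays lay below all Col-0 arrays, and all myb36-1 arrays lay above them. It fell by 0.45 in myb36-2 as deposited (SE 0.10, limma adjusted p = 0.015; 0.051 without Col-0 replicate 1) and by 0.71 on the common scale (adjusted p = 0.0064). In myb36-1 the difference was 0.21 ± 0.10 and did not pass (limma adjusted p = 0.48).

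The other 4 falls were called on the common scale only. AT1G27170 had common-scale values of 4.24, 4.11 and 4.35 in myb36-2, 4.66, 5.16 and 4.98 in myb36-1 and 4.88, 4.79 and 4.92 in Col-0, a difference of -0.63 (limma adjusted p = 0.018). AT4G19530 had 3.23, 3.17 and 3.46 in myb36-2, 3.62, 3.63 and 3.72 in myb36-1 and 3.96, 3.80 and 3.81 in Col-0, a difference of -0.57 (limma adjusted p = 0.0092). In both genes the myb36-2 arrays lay below all others. AT1G72840 differed by -0.44 (limma adjusted p = 0.0083) and AT2G14080 by -0.37 (adjusted p = 0.049). The call of AT2G14080 was lost in every fit that left out 1 array, and that of AT1G27170 when myb36-2 replicate 2 or Col-0 replicate 1 or 3 was left out.

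**Figure D2:**
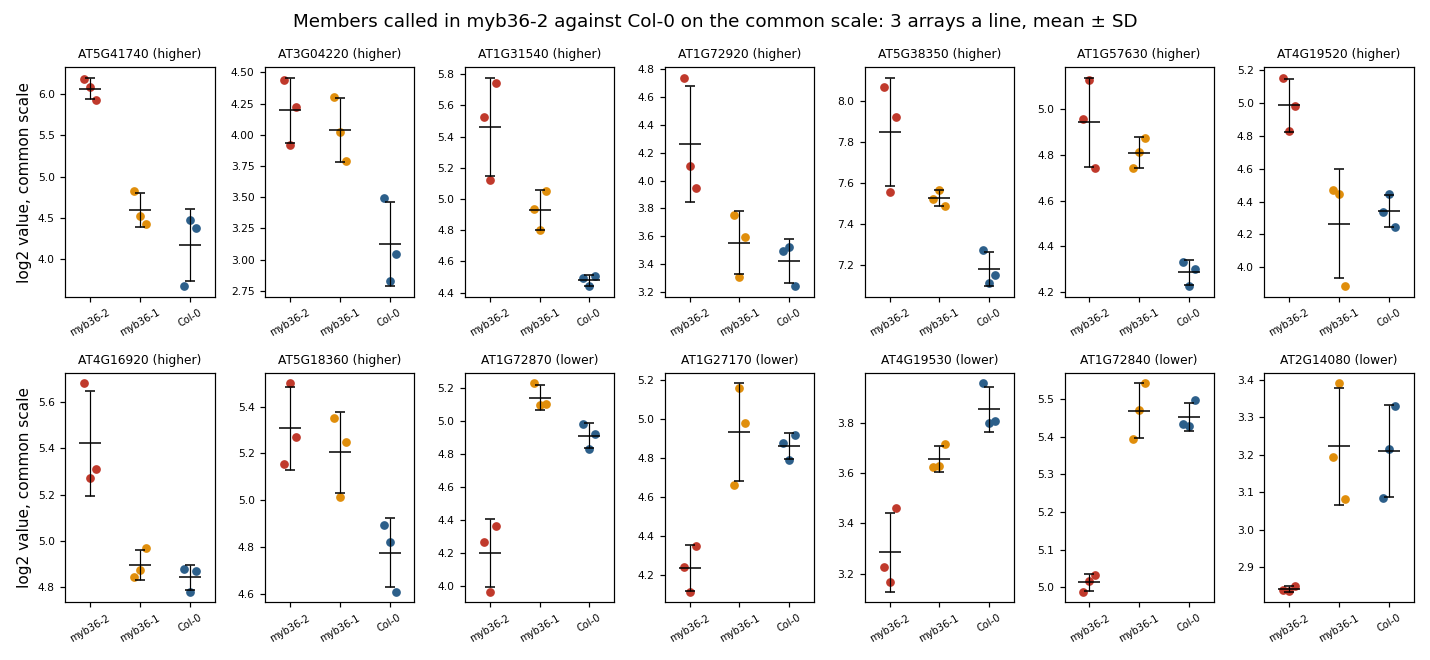
Log2 values on the common scale of the 14 members called there in myb36-2 against Col-0, with 1 point per array, a bar for the mean and whiskers for the SD (3 arrays a line; the axes do not start at 0). The myb36-2 points of AT5G41740 (6.07 ± 0.13) sit above all others and those of AT1G72870 (4.20 ± 0.21) below all others, whereas myb36-1 points lie among the Col-0 points or between the lines in most panels.

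**Figure D3:**
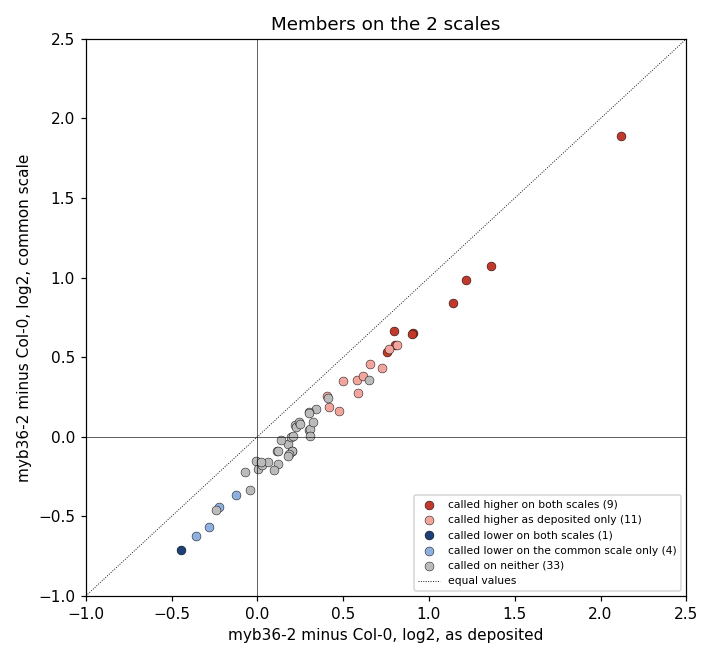
Difference between myb36-2 and Col-0 (log2) of each of the 58 members as deposited (horizontal) and on the common scale (vertical), coloured by where it was called. All points lie below the dotted line of equal values: 9 rises hold on both scales, 11 as deposited only, and 4 falls appear on the common scale only.

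In myb36-1 roots, no member was called on either scale by the brightest probe set of each gene (the second probe set of AT1G72850 was, as given with its values), when 0.495% of all tested probe sets passed as deposited, against 0.472% on the common scale. At an unadjusted limma p under 0.05, 10 members passed as deposited and 8 on the common scale, all of them higher in myb36-1, when 5.03% and 5.24% of all tested probe sets were higher at that threshold. Differences ran from -0.29 to 0.91 as deposited with a median of 0.09, and 36 of the 58 were positive (62.1%, against 48.7% of all tested probe sets). They ran from -0.33 to 0.91 on the common scale with a median of 0.08, and 40 were positive (69.0%, against 49.0% of all). Of the 9 members that rose in myb36-2 on both scales, 8 had a positive difference in myb36-1, the exception being AT4G19520 at -0.08. Both comparisons use the same 3 Col-0 arrays. AT3G04220 alone was called higher in myb36-1 when the replicate number was added as a block (limma adjusted p = 0.029).

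The mutant lines were also compared directly. As deposited, 12 members were higher in myb36-2 than in myb36-1 (14.5% of all tested probe sets were) and 1 was lower (0.926% of all). On the common scale 4 were higher (1.97% of all) and 4 lower (2.19% of all). The members' median difference was 0.25 as deposited, against 0.17 over all tested probe sets, and 0.03 on the common scale, against -0.01. AT5G41740 differed by 1.69 ± 0.20 as deposited (limma adjusted p = 0.0026) and 1.47 on the common scale (adjusted p = 0.0074). AT4G19520 (0.98 as deposited, 0.72 on the common scale), AT4G16920 (0.76 and 0.53) and AT5G22690 (0.71 and 0.47) were also higher in myb36-2 on both scales. AT1G72870 was lower in myb36-2 by both, at -0.66 ± 0.10 (limma adjusted p = 0.0051) and -0.94 (adjusted p = 0.0040). On the common scale, the calls of AT5G41740 and AT1G72870 alone held in all 6 fits that each left out 1 array of these lines.

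AT5G22690 gave 5.26, 5.09 and 5.28 in myb36-2, 4.64, 4.39 and 4.47 in myb36-1 and 4.71, 4.64 and 4.45 in Col-0. The myb36-2 arrays stood above the other lines, which overlapped. The differences of AT1G31540 (0.77 as deposited, 0.53 on the common scale, adjusted p = 0.075 in limma) and AT1G72920 (0.98 as deposited, 0.71 on the common scale, adjusted p = 0.085 in limma) passed as deposited only. Lower in myb36-2 on the common scale only were AT1G27170 (-0.70), AT4G16960 (-0.49) and AT1G72840 (-0.46).

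Position among relatives was described with the gene order of the TAIR10.1 reference. With no other protein-coding gene between them, 31 of the 60 loci form 12 runs of neighbouring members, 5 of them with at least 3 members. Of 17 measured neighbouring pairs, 1 had both genes called higher in myb36-2 as deposited and 7 had exactly 1. On the common scale 7 pairs held a called gene, 0 had both called the same way, and 1 pair was called in opposite directions. Of all 58 measured members, 34.5% were called higher as deposited, and 15.5% higher and 8.62% lower on the common scale. Whether neighbours share calls more or less often than these shares give was not tested.

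The pair with both called higher as deposited was AT5G41740 with AT5G41750. AT5G41750 gave 4.39, 4.27 and 4.26 in myb36-2, 4.02, 4.15 and 4.33 in myb36-1 and 3.81, 3.67 and 3.69 in Col-0, so that both mutants lay above Col-0. It rose by 0.59 ± 0.10 in myb36-2 (limma adjusted p = 0.0050) and was at 0.27 on the common scale (adjusted p = 0.13), against 2.12 and 1.89 for AT5G41740. The pair called in opposite directions on the common scale was AT4G19520 (0.65) with AT4G19530 (-0.57). Nearby, AT4G19500 and AT4G19510 lie at the RPP2 locus itself, where the product of each is needed for recognition of downy mildew. AT4G19500 rose by 0.42 as deposited (limma adjusted p = 0.011) and was at 0.19 on the common scale (adjusted p = 0.17). AT4G19510, not a member, rose by 0.52 and 0.32 on the 2 scales (limma adjusted p = 0.0025 and 0.026).

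The longest runs have 4 members each and lie close together on chromosome 1. In the run AT1G72840, AT1G72850, AT1G72860 and AT1G72870, the myb36-2 differences on the common scale were -0.44, 0.06, -0.15 and -0.71, the outer pair being called. In the run AT1G72890, AT1G72900, AT1G72910 and AT1G72920, many of whose products are short TIR proteins, they were -0.09, 0.04, 0.16 and 0.84, and AT1G72920 alone was called. AT1G72940 and AT1G72950, just beyond, were at 0.15 and 0.05 without passing. In the runs of 3, the middle gene AT1G63870 was the one called as deposited, beside AT1G63860 (0.12) and AT1G63880 (0.10), in the region of the RLM1 locus for blackleg resistance. AT1G63750 rose by 0.40 as deposited and was at 0.26 on the common scale (limma adjusted p = 0.033 and 0.19; the deposited-scale call was kept without myb36-2 replicate 2 but in none of the other 5 fits without 1 array), beside AT1G63730 (0.34) and AT1G63740 (0.11). AT1G17600, whose product works with that of AT1G17610 in chilling and autoimmunity, and AT1G17615 were at 0.18 and 0.20 without passing.

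**Figure D4:**
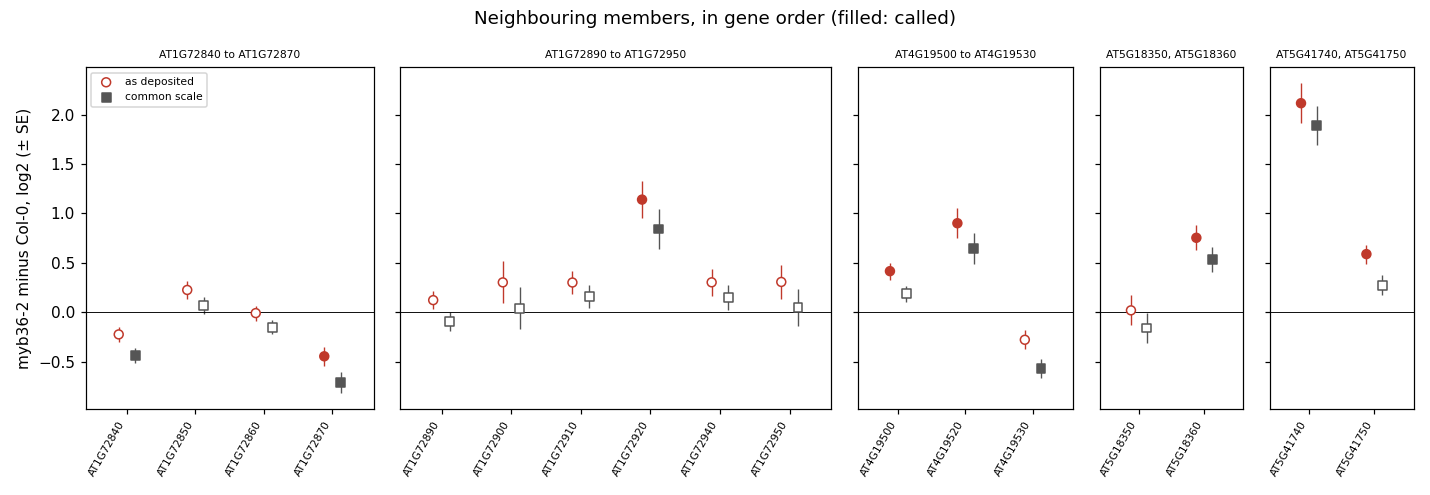
Difference between myb36-2 and Col-0 (log2, with SE) for chosen groups of neighbouring or nearby members in gene order, as deposited (red circles) and on the common scale (grey squares), filled where called. Each group drawn holds a called member, and the other runs are not drawn. AT1G72920 (1.14 and 0.84), AT4G19520 (0.90 and 0.65), AT5G18360 (0.75 and 0.53) and AT5G41740 (2.12 and 1.89) stand above the members beside them, and AT4G19530 (-0.57) falls on the common scale.

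Related copies can share signal, and probe sequences were not used here, so probe sets of near-identical genes are uncertain. The spans of AT1G72860 and AT1G72870 overlap in the reference, as do those of AT4G36140 and AT4G36150. In each of these pairs the values differed: AT1G72860 was at -0.01 beside -0.45 for AT1G72870, and AT4G36140 at -0.07 beside a rise of 0.58 for AT4G36150 (limma adjusted p = 0.0085; common scale 0.36, adjusted p = 0.064).

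Of the members 3 had 2 probe sets each, and in AT1G72850 these disagreed. The probe set with the higher mean over 9 arrays (6.27, against 6.12) stands for the gene here. It gave 6.48 ± 0.08 in myb36-2, 6.08 ± 0.11 in myb36-1 and 6.25 ± 0.08 in Col-0 (SD, n = 3 each), and in myb36-1 its difference was -0.17 (limma adjusted p = 0.54). The other gave 6.84, 6.58 and 6.67 in myb36-2, 5.08, 5.55 and 5.31 in myb36-1 and 6.49, 6.25 and 6.30 in Col-0. There the myb36-1 arrays lay below all others, with a fall by 1.03 against Col-0 (limma adjusted p = 0.0099), and by 0.99 on the common scale (adjusted p = 0.010). This probe set was the brighter one in myb36-2 and Col-0, and its low myb36-1 values placed it second, so that the count of 0 in myb36-1 rests on the choice between them. The direct difference of myb36-2 from myb36-1 was 1.38 in this probe set (limma adjusted p = 0.00095) and 0.40 in the one used for the gene (adjusted p = 0.021). On the common scale these were 1.18 (limma adjusted p = 0.0031) and 0.21 (adjusted p = 0.21). In AT1G72860 the second probe set was lower in myb36-2 on the common scale (-0.38, limma adjusted p = 0.030) and the brighter was at -0.15 without passing. In AT4G09430 neither passed in any comparison.

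**Figure D5:**
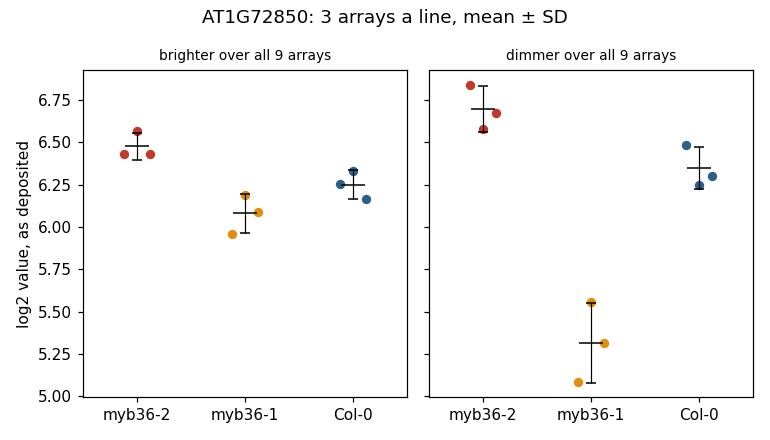
Deposited log2 values of the 2 probe sets of AT1G72850 on each array (points), with mean and SD for 3 arrays a line. In the right panel the myb36-1 arrays (5.08 to 5.55) lie below the myb36-2 and Col-0 arrays; in the left panel they span 5.96 to 6.19.

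The members' calls were uneven over signal. Of the 27 members with a mean signal of 3.26 to 5.15 over all arrays, 15 rose as deposited, when 28.1% of all tested probe sets in that range did, and 8 rose and 3 fell on the common scale, against 7.38% and 9.44% of all. Of the 16 members with a mean of 5.15 to 7.15, 1 rose as deposited, against 19.2% of all, and on the common scale 0 rose and 1 fell, against 5.70% and 6.21%. Of the 14 dimmest members, with a mean of 1.89 to 3.26, 3 rose as deposited, against 18.3% of all, and on the common scale 0 rose and 1 fell, when 3.04% of all fell. By chromosome, 6 of 27 measured members rose as deposited on chromosome 1 (3 on the common scale), 1 of 4 on chromosome 2 (0), 1 of 6 on chromosome 3 (1), 6 of 10 on chromosome 4 (2) and 6 of 11 on chromosome 5 (3). The falls called by the common scale were 3 on chromosome 1, 1 on chromosome 2 and 1 on chromosome 4. For the series as a whole, 19.3% of tested probe sets were higher in myb36-2 before common scaling. After it, 4.66% were higher and 5.39% lower. No share of all probe sets was taken for single chromosomes, so the chromosome counts are descriptive only. Differences between the shares by signal or by chromosome were not tested.

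Downstream of TIR domains, 5 of 10 listed EDS1 and helper genes were measured. SAG101, the EDS1 partner, averaged 4.57 ± 0.14 in myb36-2, 4.06 ± 0.13 in myb36-1 and 4.01 ± 0.02 in Col-0 (SD, n = 3 each). It rose by 0.56 in myb36-2 as deposited (limma adjusted p = 0.0066) and was at 0.27 on the common scale (adjusted p = 0.12). AT5G66890, AT5G66900 and AT5G66910 are the neighbouring copies of the helper receptor NRG1. The first and second rose as deposited by 0.40 and 0.36 (limma adjusted p = 0.037 and 0.036) and did not pass on the common scale. AT5G66910 was at -0.36 as deposited without passing and fell by 0.58 on the common scale (limma adjusted p = 0.023). AT3G48080, the close copy of EDS1, was at 0.44 as deposited and 0.26 on the common scale without passing (limma adjusted p = 0.062 and 0.28). None of the 5 was called in myb36-1, and none of 20 listed salicylic acid defence genes was measured.

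Other receptor genes were set beside the members. Of 38 measured TIR genes outside the members 11 rose (28.9%) and 0 fell in myb36-2 as deposited. On the common scale 6 of them rose (15.8%) and 1 fell. Their medians were 0.27 and 0.08. The highest were AT5G46450 (0.88 as deposited, 0.58 on the common scale), AT1G51270 (0.80 and 0.64), AT5G44900 (0.77 and 0.46) and AT5G45240 (0.76 and 0.47), all called on both scales. Of 37 measured genes for receptors with a coiled coil in place of the TIR domain, 13 rose (35.1%) and 0 fell as deposited. On the common scale 4 of them rose (10.8%) and 1 fell. Their medians were 0.35 and 0.13. The highest were AT1G15890 (1.45 as deposited, 1.24 on the common scale) and AT3G14470 (0.83 and 0.67), followed by AT1G58390 (0.72 and 0.42) and LOV1 (0.70 and 0.45), of which AT1G58390 did not pass on the common scale. The members' shares of rises, 34.5% as deposited and 15.5% on the common scale, were compared with these lists by count alone. In myb36-1 no gene of either list was called.

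Markers of tissues were few. Of 13 listed leaf genes 3 were measured, and LHB1B2 (-0.61) and RCA (-0.50) fell in myb36-2 on both scales. The third leaf gene was at 0.01 as deposited and -0.13 on the common scale without passing. The mean of the 3 leaf genes was 6.82 to 6.95 on the myb36-2 arrays, 6.78 to 6.90 on the myb36-1 arrays and 7.02 to 7.40 on the Col-0 arrays. On the common scale it was 6.72 to 6.83 in myb36-2, 6.86 to 6.94 in myb36-1 and 7.06 to 7.44 in Col-0. Of 3 measured cortex genes, AT1G62500 and AT1G62510 rose in myb36-2 as deposited by 0.63 and 0.78, AT1G62510 also on the common scale. The third cortex gene was at -0.03 as deposited and -0.16 on the common scale without passing. The common-scale mean of the 3 cortex genes was 5.32 to 5.52 on the myb36-2 arrays, 5.07 to 5.41 on the myb36-1 arrays and 4.90 to 5.34 on the Col-0 arrays. Of 9 listed endodermis genes 1 was measured and of 5 root hair genes 2, none of them called in either mutant. The part of tissue composition in the members' differences was not tested.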

How the data were processed

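Root RNA of 9 Affymetrix arrays was analysed, 3 per line. Per the submitters' processing notes, the authors used RMA, and they deposited log2 values. Which RMA version was used, and whether it took the 9 arrays at once, is not given in the sources used here. Of 38408 probe sets, 31325 were tested; the first 7083 in identifier order, none paired with a gene, were left out. All lines were fitted together (limma 3.58.1 under R 4.3.3) with a mean for each line, empirical Bayes and Benjamini-Hochberg adjustment. The fit was checked on simulated data with independent noise and no shift of whole arrays. That check therefore cannot bear on the higher deposited values of the myb36-2 arrays. The common scale is limma's quantile normalisation of the deposited values over 9 arrays. Named members were every member called in myb36-1, up to 12 of the largest called rises and 6 of the largest called falls in myb36-2, up to 6 of the highest and 6 of the lowest called differences between mutants (1 fall and 1 lower difference were called as deposited), the 4 highest and 4 lowest Col-0 means and all members in runs of at least 3; of the lists, every EDS1 and helper gene and up to 4 others each. Other genes were named after their values were seen. The members and lists were chosen with earlier results of these data known, and AT1G47380 was dropped from the TIR genes outside the members after values were seen, as it is annotated elsewhere as a phosphatase. Gene names and order come from RefSeq's table for TAIR10.1; its spans were used only for gene order and overlap, and no sequences were used. Alternatives covered scaling, filters, moderation, weights, the replicate number, probe set choice, threshold and omission of each array.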

Additional observations from a re-analysis of the deposited data

Results flagged for a closer look

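For 13 members the direct contrast of the mutant lines passed as deposited, so that their differences from Col-0 were not alike in myb36-2 and myb36-1. Given as myb36-2 minus myb36-1 on the log2 scale, these were AT5G41740 (1.69), AT1G72920 (0.98), AT4G19520 (0.98), AT1G31540 (0.77), AT4G16920 (0.76), AT5G22690 (0.71), AT4G36150 (0.60), AT5G17680 (0.55), AT5G38350 (0.46), AT4G19500 (0.43), AT1G72850 (0.40) and AT1G57630 (0.37), and AT1G72870 with the opposite sign (-0.66). The median over all tested probe sets was 0.17 in this contrast, and 14.5% of them were called higher. On the common scale AT5G41740, AT4G19520, AT4G16920, AT5G22690 and AT1G72870 passed as well, and the other 8 did not by the probe set used. The second probe set of AT1G72850 did pass on the common scale, at 1.18 (limma adjusted p = 0.0031).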

How the results depend on the processing

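The members called in myb36-2 against Col-0 numbered 21 as deposited, 14 on the common scale, 15 with arrays centred on their median and 14 after cyclic loess. They numbered 6 among the 20 members with a mean of at least 5, and 12 at an adjusted p under 0.01. Of all tested probe sets, 19.3% rose and 2.02% fell as deposited, and 4.66% rose and 5.39% fell on the common scale. For every comparison, no such share was taken under the other settings, so the counts there are descriptive only. Between the mutant lines the count was 13 as deposited, 8 on the common scale, 8 after cyclic loess, 9 after centring, 3 with a mean of at least 5 and 6 at an adjusted p under 0.01. In myb36-1 against Col-0 the count of 0 became 1 with the replicate block, 1 with the block on the common scale (AT3G04220, adjusted p = 0.029 and 0.039 in limma) and 1 with the mean of a gene's probe sets (AT1G72850, lower, adjusted p = 0.042). With the block the counts were 19 for myb36-2 against Col-0 and 12 between mutants, and on the common scale 15 and 4. Same-numbered arrays of different lines did not deviate together (correlations -0.19 to 0.085, against -0.17 to 0.17 for arrays with different numbers). These correlations cannot show whether same-numbered arrays were grown or processed together. Leaving out 1 array gave 15 to 21 calls in myb36-2 against Col-0 (9 to 12 on the common scale), 9 to 12 between mutants (3 to 6) and 0 in myb36-1 in every case. All 6 omissions kept 14 of the 21 deposited-scale calls and 8 of the 14 common-scale calls in myb36-2 against Col-0, and 9 of 13 and 2 of 8 between mutants. No named member called in the main comparison changed sign under scaling, moderation, the block or an omission. The remaining alternatives (mean of at least 4, all probe sets, trend with robust moderation, array weights, fewer arrays) gave 14 to 21 and 11 to 13 calls. Detection over background was not analysed here.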
